A study of Mus musculus with 12 samples.

Results

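RNA from the liver of mice that had undergone vertical sleeve gastrectomy (VSG) while on a high-fat diet was compared with RNA from the liver of chow-fed mice without surgery, to ask what remained different from chow liver after the operation. The comparison used 4 of the 12 libraries of the study, 2 from VSG and 2 from Control mice, each from 1 mouse. Of the 24392 gene symbols in the FPKM table, 9256 had an FPKM (fragments mapped per kilobase of transcript, scaled to the size of the library) of at least 1 in at least 2 of these 4 libraries and were tested. All mice were male C57BL/6J. VSG mice received a diet with 60 kcal% fat from 8 weeks of age, were operated on after 14 weeks with resection of about 80% of the stomach, took liquid diet for 4 days, and returned to the high-fat diet for 14 weeks. Control mice, of matched age and also 8 weeks old at the start, were kept on chow for 28 weeks and had no surgery. Sham mice, with the same diet as VSG mice and an operation that left the stomach whole, are given beside the results as values only. Because VSG and Control mice differed in diet, in surgery and in the weight they had carried, the parts of these factors cannot be told apart.

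The liver sets the iron supply of the body through the secreted peptide hepcidin, breaks down amino acids and feeds their nitrogen into the urea cycle, makes bile acids from cholesterol, and builds and stores fat. Its hepatocytes share the organ with resident macrophages, the Kupffer cells, and with endothelial and stellate cells. Vertical sleeve gastrectomy removes most of the acid-producing stomach and leaves a narrow tube, so that less food is held and nutrients reach the intestine sooner.

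The libraries had liver character: transthyretin (Ttr), a secreted hepatocyte protein named after its values were seen, had an FPKM of 4067 and 3284 in Control and 4143 and 3488 in VSG mice. Depth in reads is unknown, and the steps between low FPKM values gave relative depths from 0.833 to 1.56 of that of Control mouse 1. The pair of Control mice differed at least 2-fold, on the log2(FPKM + 1) scale used throughout, for 9.05% of tested genes, the pair of VSG mice for 15%, and a VSG with a Control mouse for 14.8 to 19.5%. The VSG mice thus differed from each other about as often as from Control mice. The median difference over all tested genes was 0.12 (log2), which became −0.016 with median-of-ratios scaling, and 61.1% of genes were higher in VSG mice. The medians of gene lists are given with this shift left in. In bulk liver, fewer cells of a type and less RNA per cell cannot be told apart.

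VSG livers had 22 genes called higher and 23 called lower than Control livers at an adjusted p under 0.1 (limma, FDR 10%, the level used in the study), which is 0.238% and 0.248% of the genes tested, or 0.486% together. The smallest adjusted p was 0.0069. An unadjusted p under 0.05 was reached by 970 genes higher (10.5%) and 343 genes lower (3.71%) in VSG mice, 14.2% in all. Higher genes were 73.9% of these, against 54.7% with median-of-ratios scaling (625 higher and 517 lower), so the excess of higher genes depended on the scaling. At least 2-fold apart without overlap between the groups were 546 genes higher (5.9%) and 324 lower (3.5%), 9.4% in all. Higher genes were 62.8% of these and 48% with median-of-ratios scaling. Groups of 2 against 2 do not overlap for 49.7% of tested genes, 34.4% with VSG above and 15.3% with VSG below, so absence of overlap by itself is common here. Without any 1 of the 4 libraries no gene passed, with between 597 and 1915 genes at an unadjusted p under 0.05. An exact permutation test of 2 against 2 cannot give a p under 0.3333. In the following, "rose" and "fell" are used of the called genes, and other genes are given by their values. Counts of list members given as higher or lower are at an unadjusted p under 0.05 unless another measure is named.

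**Figure D1:**
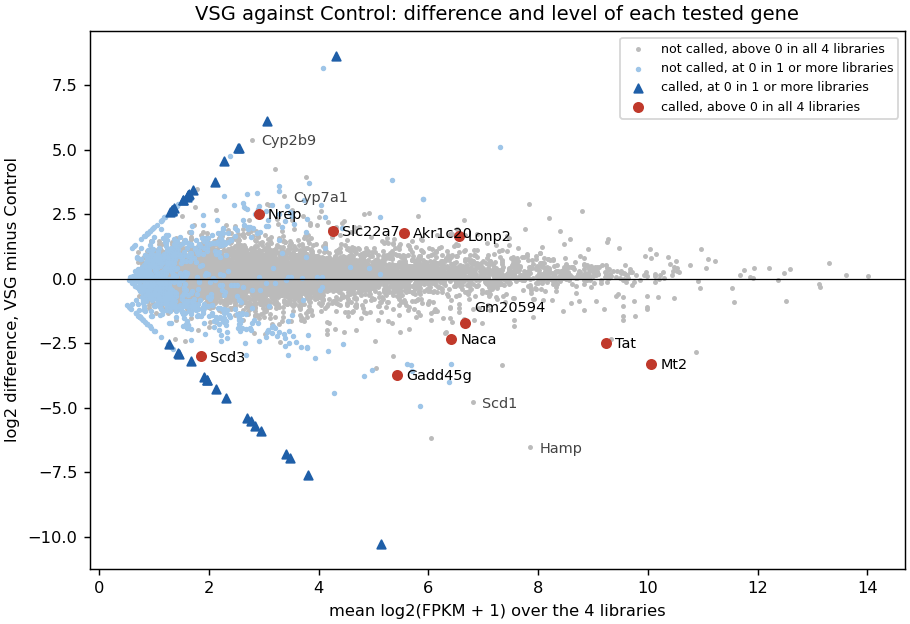
Difference in log2(FPKM + 1) between VSG and Control (vertical axis) against the mean over the 4 libraries (horizontal axis), 1 point per tested gene. Of the 45 called genes, the 35 drawn as blue triangles are listed at 0 in at least 1 library and the 10 drawn as red circles are above 0 in all 4. Hamp and Scd1 have large differences and were not called.

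Of the called genes, 10 were above 0 in all 4 libraries. The 4 that rose were Slc22a7, Akr1c20, Lonp2 and Nrep. Slc22a7, a hepatocyte transporter of organic anions, had an FPKM of 9.44 and 8.71 in Control and 35.8 and 35.1 in VSG mice, a 3.9-fold higher mean (log2 difference 1.86, standard error 0.15, adjusted p = 0.0901). The Sham mice were at 46.3 and 7.38, a range that takes in both other groups. Akr1c20, an aldo-keto reductase, rose from 24.3 and 24.3 to 92.0 and 81.1 (adjusted p = 0.0951). Lonp2, the Lon protease of peroxisomes, rose from 49.4 and 54.4 to 168 and 165 (log2 difference 1.67, standard error 0.14, adjusted p = 0.0971), and both Sham mice lay between, at 106 and 109. Nrep, first described in regenerating neurons, rose from 2.51 and 1.81 to 15.5 and 18.7 (adjusted p = 0.0974).

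The 6 that fell were Tat, Gadd45g, Mt2, Scd3, Naca and the predicted gene Gm20594. Tyrosine aminotransferase (Tat), the first step of tyrosine breakdown and a gene long known to respond to glucocorticoids, fell from 1376 and 1477 to 233 and 283, a 5.54-fold lower mean (log2 difference −2.47, standard error 0.18, adjusted p = 0.0610). The Sham mice, at 210 and 188, were as low as the VSG mice. Gadd45g, a stress-responsive gene, fell from 159 and 152 to 14.7 and 7.89 (log2 difference −3.73, standard error 0.33, adjusted p = 0.0974). Scd3, a stearoyl-CoA desaturase, fell from 8.59 and 10.1 to 0.429 and 0.156 (adjusted p = 0.0788). Naca, a subunit of the nascent polypeptide-associated complex at the ribosome, fell from 193 and 187 to 34.2 and 40.3 (log2 difference −2.32, standard error 0.16, adjusted p = 0.0586), with the Sham mice at 199 and 151, beside the Control level. Naca has 3 transcripts in the table, of which 2 are listed at 0 in all 6 RNA libraries of the study.

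The other 35 called genes were listed at 0 in at least 1 library. Both VSG libraries were at 0 for 16 genes that fell, both Control libraries for 17 that rose, and 11 of the called symbols were small RNAs. Cufflinks can list a transcript at 0 when its estimate fails, so these genes are given as listed values without a fold change. Stat2, a mediator of interferon signalling, was at 14.8 and 13.9 in Control mice and listed at 0 in both VSG mice (adjusted p = 0.0298), with the Sham mice at 0 and 20.2. Mrpl18, a mitochondrial ribosomal protein, was at 40.2 and 40.9 in Control mice and at 0 in the other 4 libraries (adjusted p = 0.0148). In the other direction, Lifr, the receptor for leukaemia inhibitory factor, was listed at 0 in both Control mice and at 7.04 and 7.45 in VSG mice (adjusted p = 0.0574). Fdxr, a mitochondrial ferredoxin reductase, was at 0 in Control and at 9.15 and 10.5 in VSG mice. Il18bp, which binds interleukin 18, was at 0.376 and 0 in Control and at 14.5 and 15.3 in VSG mice (adjusted p = 0.0574), with the Sham mice at 28.3 and 36. When only the 8359 genes above 0 in all 4 libraries were fitted and adjusted, no gene passed: the smallest adjusted p was 0.145, with 1357 genes at an unadjusted p under 0.05.

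Hamp and its relative Hamp2 had the largest differences of genes lower in VSG mice and above 0 in all 4 libraries. Hepcidin, the product of Hamp, is secreted by hepatocytes and blocks the export of iron from gut and macrophages. Mice carry a related gene, Hamp2, whose effect on iron was not examined here. Hamp (chromosome 7, 31727390 to 31729036, minus strand, mm9) had an FPKM of 2052 and 2407 in Control and 99.7 and 4.74 in VSG mice, a 42.7-fold lower mean. Its log2 difference was −6.53 with a standard error of 1.5 and an adjusted p of 0.257, since the VSG mice themselves lay far apart, and it was not called. The Sham mice, at 1253 and 718, lay between, and no library of 1 group reached the range of another. Hamp2 (chromosome 7, 31707391 to 31709200) went the same way, with 575 and 542 in Control and 23.0 and 1.56 in VSG mice (adjusted p = 0.226), and 272 and 160 in Sham mice.

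The promoters of this gene pair are shown because hepcidin is known to be driven by bone morphogenetic protein (BMP) signals and by STAT3, and a BMP response element (GGCGCC) and a STAT site (TTCNNNGAA) are known in its proximal promoter. Both motifs were searched on both strands in the 250 bases before and 50 bases after the start site (RefSeq, GRCm38.p6), and the matches are in capitals. Hamp lies at chr7:30943980-30944279 and Hamp2 at chr7:30924132-30924431 of that build, both on the minus strand.
Hamp: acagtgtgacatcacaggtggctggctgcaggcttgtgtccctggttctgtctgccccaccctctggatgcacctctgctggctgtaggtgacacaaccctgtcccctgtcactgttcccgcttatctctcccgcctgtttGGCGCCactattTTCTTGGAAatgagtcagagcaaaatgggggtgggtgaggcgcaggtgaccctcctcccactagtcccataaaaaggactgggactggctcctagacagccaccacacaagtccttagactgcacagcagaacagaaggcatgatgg
Hamp2: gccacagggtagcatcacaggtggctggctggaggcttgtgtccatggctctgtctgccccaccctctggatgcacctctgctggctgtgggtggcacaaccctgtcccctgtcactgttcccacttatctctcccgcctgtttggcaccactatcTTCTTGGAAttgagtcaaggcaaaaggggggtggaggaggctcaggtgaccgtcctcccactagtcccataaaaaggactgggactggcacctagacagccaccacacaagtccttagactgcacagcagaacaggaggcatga
The Hamp promoter held 1 match of each, the BMP response element starting 109 bases and the STAT site 97 bases before the start site. The Hamp2 promoter held 1 STAT match, 94 bases before the start, and no GGCGCC. Among all 32851 promoters of the same length, 11.9% held GGCGCC and 8.3% held TTCNNNGAA.

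The FAIRE lists, which mark open chromatin and were made by the study from the same livers, differed at Hamp. In mm9 the Control list held a peak from 475 bases before to 37 bases after the start site of Hamp and another from 1929 to 1376 bases before it. The Sham list held peaks at both places as well. In the VSG list neither was present, and the peak nearest to the start lay 10066 bases upstream. At Hamp2, which was also lower in VSG mice, no list held a peak within 1000 bases of a start site, that of Control mice included. Each list combines the 2 mice of a group, so no spread between mice is known and no test was made.

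Among the 22 tested genes of iron handling, 3 were higher and 5 lower in VSG mice at an unadjusted p under 0.05, none was called, and the list's median was 0.37. The transferrin receptor (Tfrc), which takes up iron from blood and whose messenger RNA is known to be stabilised when iron is low, had an FPKM of 2.56 and 1.76 in Control and 7.08 and 9.66 in VSG mice, a 3.87-fold higher mean (adjusted p = 0.213). The Sham mice, at 2.54 and 2.99, were not apart from the Control mice. Aco1, which encodes the iron-responsive protein IRP1 that binds such messenger RNAs, was at 9.20 and 9.11 in Control and 39.6 and 56.5 in VSG mice (log2 difference 2.25, standard error 0.23, adjusted p = 0.121), with Sham mice at 6.79 and 28.0. Steap3, a ferrireductase, was at 3.25 and 2.34 in Control and 7.78 and 8.12 in VSG mice, but the Sham mice were as high, at 7.11 and 6.66. Ncoa4, which carries ferritin to its breakdown, was lower, with 61.4 and 64.8 in Control and 39.2 and 28.2 in VSG mice. The iron exporter Slc40a1, named after its values were seen, overlapped between the groups, with 10.2 and 9.74 in Control and 6.74 and 22.9 in VSG mice.

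**Figure D2:**
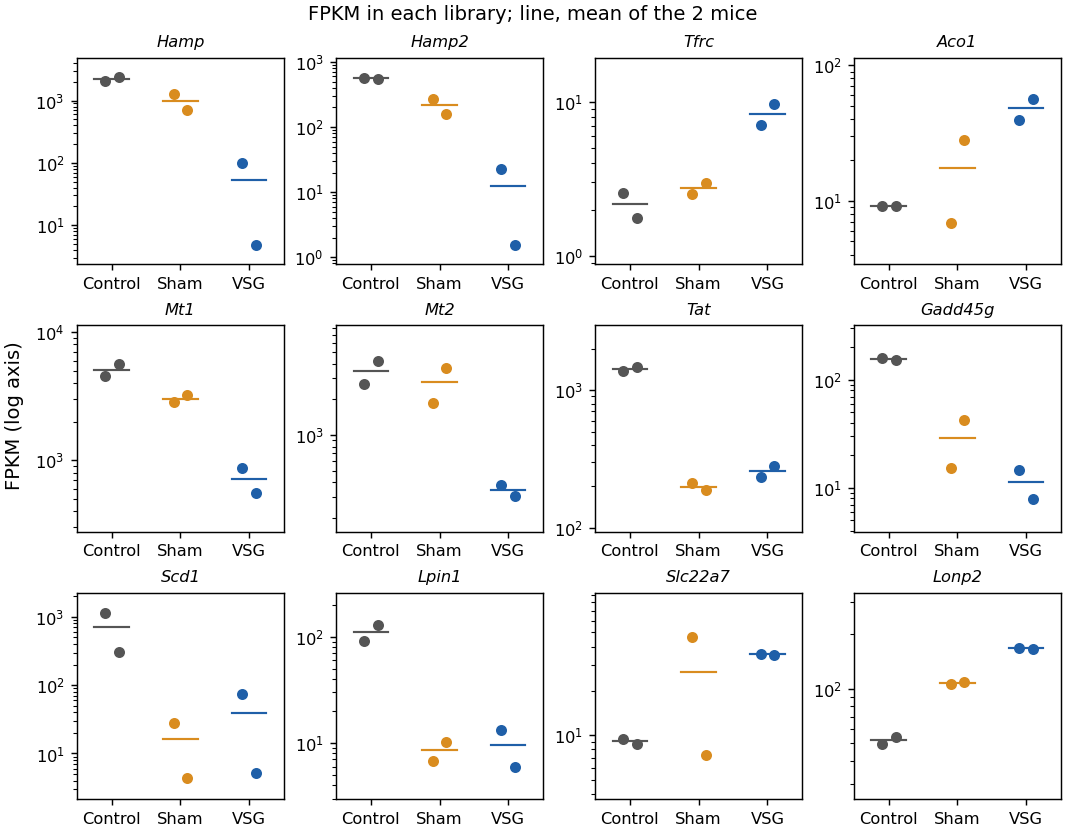
FPKM on a log axis of 12 genes in each Control, Sham and VSG library, with the mean of the 2 mice as a line. Hamp, Hamp2, Mt1 and Mt2 are low in VSG mice with Sham mice nearer to Control, Tat and Lpin1 are low in Sham and VSG mice alike, and Tfrc is high in VSG mice only of the 6 libraries drawn.

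Metallothioneins, small proteins that bind zinc and copper, were the most abundant genes with a large difference. Mt2 (chromosome 8, 96696518 to 96697467, mm9) fell from 2675 and 4196 to 378 and 307, a 10.03-fold lower mean (log2 difference −3.29, standard error 0.29, adjusted p = 0.0980). Mt1, its neighbour (96702989 to 96704225), had 4506 and 5629 in Control and 870 and 555 in VSG mice, a 7.11-fold lower mean (log2 difference −2.86, standard error 0.30, adjusted p = 0.122). The Sham mice were nearer to Control than to VSG mice, with 1861 and 3699 for Mt2 and 2826 and 3221 for Mt1. Their promoters are shown for the metal response elements, through which zinc is known to induce them. The core TGCACNC or TGCGCNC was searched on both strands (RefSeq, GRCm38.p6, plus strand, matches in capitals), and Mt1 lies at chr8:94178839-94179138 and Mt2 at chr8:94172368-94172667.
Mt1: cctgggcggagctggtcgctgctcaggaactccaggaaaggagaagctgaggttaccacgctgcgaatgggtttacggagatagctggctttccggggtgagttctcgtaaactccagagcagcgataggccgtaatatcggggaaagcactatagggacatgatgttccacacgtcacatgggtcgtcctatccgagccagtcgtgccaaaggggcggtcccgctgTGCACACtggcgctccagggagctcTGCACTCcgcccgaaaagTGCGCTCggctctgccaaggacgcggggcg
Mt2: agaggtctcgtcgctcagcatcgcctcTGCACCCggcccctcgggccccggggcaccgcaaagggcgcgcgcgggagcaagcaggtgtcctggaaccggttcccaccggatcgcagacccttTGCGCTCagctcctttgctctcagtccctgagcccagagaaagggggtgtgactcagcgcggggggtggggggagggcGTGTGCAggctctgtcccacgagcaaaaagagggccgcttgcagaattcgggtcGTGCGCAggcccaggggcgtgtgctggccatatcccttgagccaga
The Mt1 promoter held 3 and the Mt2 promoter 4 matches, and 25.7% of all promoters held at least 1. At Mt2 the FAIRE lists of all 3 groups held a peak over the start site.

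Genes known to respond to glucocorticoids were mostly lower, with 0 of 12 tested higher and 4 lower at an unadjusted p under 0.05, 3 of them called. Of all tested genes, 3.71% were lower at that level and 0.248% were called lower. The 4 were Tat, Gadd45g, Mt2 and Mt1, given above, and the list's median was −1.16, from −1.93 without VSG mouse 2 to −0.68 without VSG mouse 1. Lcn2, given below, went the other way and had both VSG mice above both Control mice. Of the other members, Fkbp5, a steroid receptor chaperone, was at 23.5 and 7.67 in Control and 2.30 and 7.06 in VSG mice, and Pck1, the rate-limiting enzyme of gluconeogenesis, at 1490 and 1485 in Control and 452 and 1052 in VSG mice (adjusted p = 0.399). The list shares Tat with the genes of amino acid breakdown and Gadd45g with the immediate early genes. Mt1 and Mt2 are also among the acute phase genes and among the metallothioneins and Nrf2 targets. Between Sham and Control mice the list's median difference was −1.23. Gadd45g was at 15.3 and 42.5 in Sham mice.

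Among 36 tested genes of amino acid breakdown and the urea cycle, 1 was higher and 8 lower in VSG mice at an unadjusted p under 0.05, 1 of them, Tat, called. Of all tested genes, 10.5% were higher and 3.71% lower at that level, and 0.248% were called lower. The list's median was −0.55, and 16 of the 36 members had both VSG mice below both Control mice, as had 15.3% of all tested genes. The aspartate aminotransferase Got1 was at 138 and 166 in Control and 41.3 and 53.6 in VSG mice (log2 difference −1.67, standard error 0.21, adjusted p = 0.171). Ass1 and Asl join and split argininosuccinate in the urea cycle. Ass1 had 1309 and 1302 in Control and 334 and 545 in VSG mice, and Asl 553 and 527 in Control and 180 and 291 in VSG mice. Gnmt, which spends methyl groups on glycine, had 1287 and 1205 in Control and 375 and 546 in VSG mice. In each of these 4 genes both VSG and both Sham mice lay below both Control mice, with Sham values of 27.4 and 44.7 for Got1, 300 and 256 for Ass1, 152 and 127 for Asl and 413 and 261 for Gnmt. Cps1, the entry step of the urea cycle, overlapped, with 153 and 518 in Control and 147 and 250 in VSG mice.

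Among genes that make fatty acids and triglycerides, Scd1 and Lpin1 were the furthest below Control. Of 24 tested, 1 was higher and 6 lower at an unadjusted p under 0.05, none was called, and the median was −0.14. Stearoyl-CoA desaturase (Scd1), which makes monounsaturated fat, was at 1123 and 308 in Control and 74.1 and 5.12 in VSG mice (log2 difference −4.78, standard error 1.48, adjusted p = 0.316), with Sham mice at 27.7 and 4.32. Scd2 was at 5.50 and 6.49 in Control and 0.525 and 1.02 in VSG mice, and Scd3, which is not among the 24 listed genes, is given above. The elongase Elovl6 was at 15.4 and 15.1 in Control and 4.05 and 3.68 in VSG mice (log2 difference −1.74, standard error 0.17, adjusted p = 0.108). Lpin1, a phosphatidate phosphatase that fasting and glucocorticoids are known to raise, was at 91.9 and 129 in Control and 13.4 and 5.95 in VSG mice (adjusted p = 0.171). The Sham mice were low for these genes too, at 3.87 and 1.39 for Elovl6 and 6.80 and 10.3 for Lpin1. Fatty acid synthase (Fasn), named after its values were seen, lay less far apart, with 20.7 and 13.7 in Control and 13.4 and 7.72 in VSG mice.

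Of 21 tested genes of lipid droplets and of the fat-storing receptor Pparg, 6 were higher and 1 lower at an unadjusted p under 0.05, with none called and a median of 0.57. Cd36, a fatty acid transporter, was at 6.73 and 6.48 in Control and 20.3 and 25.2 in VSG mice (log2 difference 1.63, standard error 0.19, adjusted p = 0.147). Pparg itself was at 2.34 and 3.50 in Control and 6.75 and 8.73 in VSG mice. Cidea, a droplet protein typical of brown fat, was nearly unread in Control mice, at 0.0367 and 0.0441, and at 24.7 and 4.11 in VSG mice (adjusted p = 0.265). The lower gene was Pnpla2, the first lipase of stored triglyceride, with 51.3 and 51.5 in Control and 25.7 and 28.8 in VSG mice. The Sham mice matched the VSG mice for Cd36, at 22.5 and 23.3, and for Pnpla2, at 26.6 and 26.7.

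Of 30 tested PPAR alpha targets, which serve fatty acid oxidation, 3 were higher and 6 lower at an unadjusted p under 0.05. Ucp2, a mitochondrial carrier, was at 10.04 and 8.42 in Control and 36.9 and 32.1 in VSG mice (log2 difference 1.79, standard error 0.18, adjusted p = 0.120), with Sham mice at 42.9 and 50.9. Pdk4, which spares glucose in fasting, was at 8.32 and 21.9 in Control and 2.38 and 2.52 in VSG mice. The list's median of 0.06 became −0.11 with median-of-ratios scaling, so its sign depended on the scaling.

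Of 25 tested genes of cholesterol synthesis and uptake, 2 were higher and 1 lower at an unadjusted p under 0.05. The list depended on 1 mouse. The list's median of −0.70 moved to −1.27 when VSG mouse 1 was left out and to 0.42 when VSG mouse 2 was.

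Bile acid synthesis showed 4 of 16 genes higher and 3 lower at an unadjusted p under 0.05. Cyp7a1, the rate-limiting enzyme, was at 2.28 and 2.60 in Control and 68.3 and 13.2 in VSG mice, a 16.7-fold higher mean (log2 difference 3.19, standard error 0.84, adjusted p = 0.278). The Sham mice were at 0 and 4.58, so both VSG mice lay above the other 4. Akr1c6, a hydroxysteroid dehydrogenase, was at 406 and 321 in Control and 1037 and 1075 in VSG mice (adjusted p = 0.160). Hsd3b7, which acts after Cyp7a1, was at 129 and 94.5 in Control and 322 and 239 in VSG mice. Cyp2c70, which makes muricholic acids in mice, was lower, with 238 and 214 in Control and 86.4 and 54.9 in VSG mice (log2 difference −1.70, standard error 0.27, adjusted p = 0.208), and the Sham mice were at the VSG level, 73.3 and 62.6. Among 14 tested transporters of bile acids and organic anions, 4 were higher and 1 lower. Slc22a7 was the 1 called.

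The cytochrome P450 genes that the study followed were not uniform between the VSG mice. Cyp3a11, the main drug-metabolising member in mouse liver, was at 1603 and 1293 in Control and 100 and 828 in VSG mice (adjusted p = 0.444). Cyp2c29 was at 339 and 483 in Control and 122.8 and 423.6 in VSG mice, Cyp2c50 at 246 and 279 in Control and 217 and 355 in VSG mice, and Cyp2c55 at 1.95 and 1.64 in Control and 0.304 and 2.34 in VSG mice. In these 3 genes VSG mouse 1 lay below and VSG mouse 2 within or above the Control values. The Sham mice were at 48.6 and 7.32 for Cyp3a11, 41.5 and 11.2 for Cyp2c29, 148 and 20.6 for Cyp2c50 and 0.0584 and 0 for Cyp2c55. In each of these genes both VSG mice lay above both Sham mice. For Cyp3a59, given next, the Sham mice, at 7.88 and 5.11, lay within the VSG range. The study also measured some Cyp genes by RT-qPCR in further livers of each group, which are not compared here. Cyp3a25 was listed at 0 in both Control mice and at 114 and 724 in VSG mice, and Cyp3a59 at 0 and 34.7 in Control and at 14.0 and 0 in VSG mice. These sequences are close to each other, so reads may be split between them. Cyp2b10 and Cyp2b9 went opposite ways. Cyp2b10, the classical target of the receptor CAR, fell from 8.46 and 8.81 to 0.135 and 0 (adjusted p = 0.0574), and in Sham mice it was at 0.0389 and 0.009. Cyp2b9, a form typical of female liver, was at 0.0562 and 0.0675 in Control and 17.9 and 103 in VSG mice (log2 difference 5.39, standard error 0.91, adjusted p = 0.213), with Sham mice at 8.43 and 0.324. Of 14 tested male-biased genes, 0 were higher and 6 lower at an unadjusted p under 0.05 (median −0.73). Of 12 female-biased genes 4 were higher and 1 lower at that level (median 0.32). Without VSG mouse 2 the female-biased median was −0.016. Of all tested genes, 10.5% were higher and 3.71% lower at that level. Between Sham and Control mice the median difference was −1.05 for the male-biased and −0.45 for the female-biased list.

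Interferon-stimulated genes had the most members with an unadjusted p under 0.05 of the lists examined. Of 32 tested, 17 were higher (53.1%, against 10.5% of all tested genes) and 1 lower at an unadjusted p under 0.05, and 25 had both VSG mice above both Control mice, as had 34.4% of all tested genes. The median was 0.81, and between 0.67 and 0.80 without any 1 library. Psmb8, Psmb9 and Tap1 serve the making and import of peptides for class I antigen presentation. Psmb8 was at 12.8 and 11.9 in Control and 28.9 and 37.5 in VSG mice (adjusted p = 0.193), Psmb9 at 8.96 and 3.43 in Control and 48.1 and 32.9 in VSG mice, and Tap1 at 4.31 and 3.66 in Control and 11.5 and 11.2 in VSG mice (log2 difference 1.31, standard error 0.18, adjusted p = 0.174). Usp18, a brake on interferon signalling, was at 2.95 and 2.48 in Control and 7.85 and 6.16 in VSG mice. Isg15, the ubiquitin-like modifier that Usp18 removes, was at 5.75 and 4.52 in Control and 20.0 and 12.7 in VSG mice (named after its values were seen). The Sham mice lay above both Control mice too, at 35.8 and 15.4 for Isg15 and 43.7 and 22 for Psmb8. The 1 lower gene was Stat2, listed at 0 in VSG mice, and none of the 17 was called.

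Interferon acts on such genes through the interferon-stimulated response element, searched for on both strands as GAAA repeated after a gap of 2 bases. Of the 17 higher genes, 13 had a promoter in the RefSeq table and 8 of these 13 held the motif within 250 bases before to 50 bases after a start site, as did 5 of 11 other tested members of the list and 3.99% of all 27025 genes of the table. The list was drawn up of genes known to respond to interferon, so a share above that of all genes is no result of these data. Promoters of Isg15 (chr4:156200769-156201068, minus strand) and of the GTPase Igtp (chr11:58199306-58199605, plus strand; both GRCm38.p6) show it, with matches in capitals.
Isg15: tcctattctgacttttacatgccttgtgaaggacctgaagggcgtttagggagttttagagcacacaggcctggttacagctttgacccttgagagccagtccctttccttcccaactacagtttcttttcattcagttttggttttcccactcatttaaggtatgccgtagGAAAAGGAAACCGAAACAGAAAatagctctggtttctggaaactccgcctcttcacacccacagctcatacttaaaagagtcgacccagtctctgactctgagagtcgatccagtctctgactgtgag
Igtp: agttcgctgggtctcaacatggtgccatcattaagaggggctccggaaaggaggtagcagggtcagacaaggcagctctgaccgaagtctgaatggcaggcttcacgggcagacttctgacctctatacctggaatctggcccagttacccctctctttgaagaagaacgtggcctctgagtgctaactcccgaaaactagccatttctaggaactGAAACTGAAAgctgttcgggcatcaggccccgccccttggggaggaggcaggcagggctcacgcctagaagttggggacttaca
In Isg15, 3 overlapping matches start 78, 72 and 66 bases before the start site, and in Igtp 1 match starts 34 bases before it. Igtp, named after its values were seen, was at 9.94 and 8.91 in Control and 16 and 15.6 in VSG mice.

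**Figure D3:**
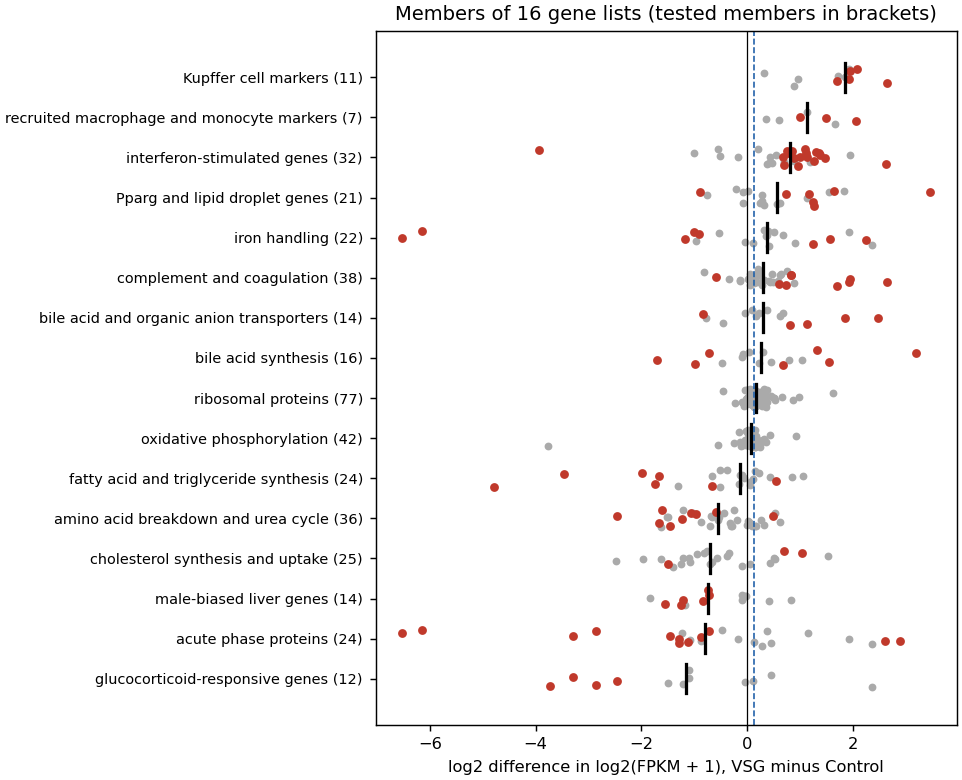
Difference in log2(FPKM + 1) between VSG and Control for the tested members of 16 gene lists, with the number of members in brackets. Red points have an unadjusted p under 0.05, black bars are list medians and the dashed line is the median of all tested genes, 0.12. Kupffer cell markers have the highest median of those drawn, 1.85, and glucocorticoid-responsive genes the lowest, −1.16.

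Markers of macrophages were higher in VSG liver, to a degree that 1 mouse set. Of 11 tested Kupffer cell markers, 5 were higher and 0 lower at an unadjusted p under 0.05, and all 11 had a higher mean in VSG mice, with a median of 1.85. Leaving out VSG mouse 2 gave a median of 1.02, and leaving out VSG mouse 1 gave 2.68. Summed over the listed markers, FPKM was 75.4 and 52.4 in Control, 116.6 and 410.8 in VSG and 158.5 and 139.5 in Sham mice. Cd5l, a protein secreted by macrophages, was at 5.18 and 2.37 in Control and 18.6 and 40.8 in VSG mice (adjusted p = 0.228). C1qb, a chain of complement C1q, was at 10.8 and 6.91 in Control and 21.0 and 60.8 in VSG mice. Clec4f, which defines Kupffer cells, had an FPKM of 5.22 and 3.53 in Control mice. VSG mouse 1, at 6.31, was close to these values and VSG mouse 2, at 48.8, was far above. The same library had high haemoglobin: Hba-a1 was at 256 and 197 in Control and 329 and 1306 in VSG mice, and red cell markers summed to 485.8 and 395.3 in Control and 616.1 and 2544.5 in VSG mice. The part of blood or of dissection in the macrophage values was not tested. Of 7 tested markers of recruited macrophages, 3 were higher and 0 lower (median 1.14, 0.88 without VSG mouse 1). Lyz2 was at 6.54 and 6.69 in Control and 19.2 and 49.5 in VSG mice, and Trem2, a lipid receptor of macrophages in fatty liver, at 0.397 and 0.382 in Control and 2.04 and 1.55 in VSG mice. Of these, the Sham mice were at 22.2 and 60.0 for Lyz2 and 2.88 and 3.39 for Trem2.

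Of 15 tested sinusoidal endothelial markers, 0 were higher and 1, Bmp2, was lower at an unadjusted p under 0.05. Bmp2, one of the BMP ligands made by these cells and a known inducer of hepcidin, was at 2.74 and 1.84 in Control, 0.233 and 0.379 in VSG and 0.977 and 0.269 in Sham mice (adjusted p = 0.228). Of 9 tested stellate cell markers, 2 were higher and 0 lower. Rgs5, a pericyte gene, was at 1.92 and 2.14 in Control and 7.06 and 8.78 in VSG mice (log2 difference 1.55, standard error 0.21, adjusted p = 0.172), and the Sham mice, at 1.89 and 1.79, were at the Control level. No B cell marker and 1 marker of T and natural killer cells reached the level for testing. Of 5 tested neutrophil markers, 1 was higher and 0 lower, with a median of 1.02. Of 3 tested pancreas and gut markers, 2 were higher and 0 lower. They were Fabp2, an intestinal fatty acid carrier, at 56.7 and 40.1 in Control and 87.8 and 147.5 in VSG mice, and the elastase Cela1, listed at 0 in both Control mice and at 2.78 and 1.61 in VSG mice. Insulin (Ins1, Ins2) was listed at 0 in all 6 RNA libraries.

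Acute phase genes, which hepatocytes change in inflammation, were more often lower than higher: 2 of 24 tested were higher and 10 lower at an unadjusted p under 0.05 (median −0.80, between −0.94 and −0.40 without 1 library). Of all tested genes, 10.5% were higher and 3.71% lower at that level. The list's median difference between Sham and Control mice had the other sign, at 0.41. The lower members include Mt1, Mt2, Hamp and Hamp2, which other lists also hold. The transcription factors Cebpb and Cebpd, which drive the response, were at 127 and 121 in Control and 68.3 and 46.4 in VSG mice and at 4.91 and 4.67 in Control and 1.55 and 1.18 in VSG mice. The metalloreductase Steap4 was at 162 and 132 in Control and 58.0 and 61.3 in VSG mice (log2 difference −1.28, standard error 0.17, adjusted p = 0.174). Against this direction, Apcs, the serum amyloid P component, was at 76.9 and 88.8 in Control and 1316 and 293 in VSG mice, and lipocalin 2 (Lcn2) at 154 and 109 in Control and 2069 and 214 in VSG mice (adjusted p = 0.462). In both, VSG mouse 1 was the higher, and the Sham mice were at 1125 and 4400 for Apcs and 1932 and 5279 for Lcn2. Of 38 tested complement and coagulation genes, 8 were higher and 1 lower, and 21 had both VSG mice above both Control mice, as had 34.4% of all tested genes. The list's median of 0.30 was 0.13 with median-of-ratios scaling. C3, the centre of the cascade, was at 843 and 1163 in Control and 1663 and 1884 in VSG mice (adjusted p = 0.286). Cd14, the coreceptor for endotoxin, was little apart, with 2.25 and 1.31 in Control and 2.82 and 2.45 in VSG mice (adjusted p = 0.543), against 8.13 and 49.0 in Sham mice. Slpi, an inhibitor of leukocyte proteases, was below the level for testing, with 0.157 and 0.315 in Control, 2.36 and 0.741 in VSG and 8.31 and 16.3 in Sham mice.

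**Figure D4:**
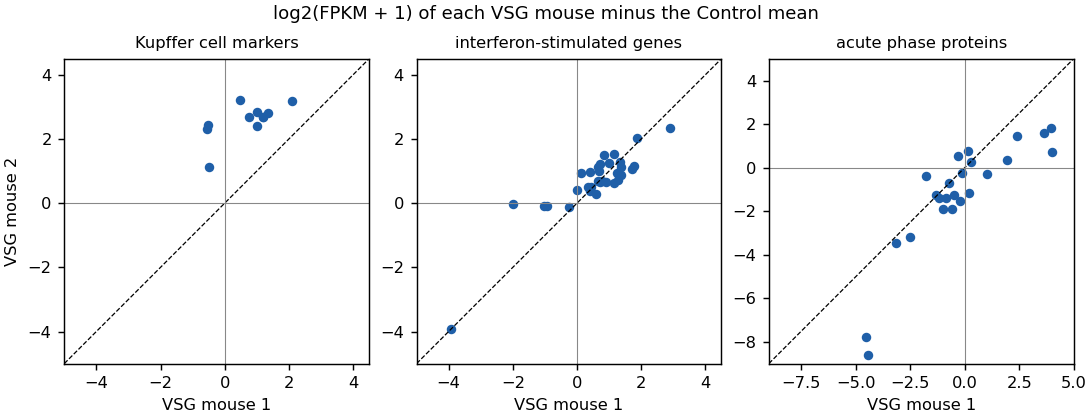
Level of each gene, log2(FPKM + 1), in VSG mouse 1 (horizontal axis) and VSG mouse 2 (vertical axis) relative to the Control mean, for Kupffer cell markers, interferon-stimulated genes and acute phase genes. The 11 Kupffer markers lie above the diagonal, higher in mouse 2 than in mouse 1, whereas interferon-stimulated genes scatter about it.

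Several large lists had no member apart. Of 42 tested genes of oxidative phosphorylation, 0 were higher and 0 lower at an unadjusted p under 0.05, with a median of 0.07 that was −0.10 with median-of-ratios scaling. Of 77 ribosomal protein genes, 0 were higher and 0 lower, and their median of 0.16 was −0.0039 with the same scaling. Of 18 heat shock genes and 11 chemokines, 0 were higher and 0 lower in each list. For lists of this kind a difference smaller than the spread between mice was not detectable.

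At the start sites of the genes, FAIRE peaks were mostly present in both groups. Of 9053 tested genes with a start site in the mm9 annotation, 89.5% had a peak within 1000 bases in both the Control and the VSG list, 1.02% in the Control list only and 1.8% in the VSG list only. For genes at least 2-fold higher in VSG mice without overlap these shares were 75.8%, 1.9% and 4.76% of 525 genes, and for genes at least 2-fold lower 83.2%, 3.16% and 1.58% of 316 genes. Of called genes with a start site, 16 of 20 higher and 10 of 20 lower genes had a peak in both lists. In neither list had 3 of the higher and 8 of the lower genes a peak, against 7.68% of all tested genes. A peak in the Control but not the VSG list was present for 1 of 20 higher and 2 of 20 lower genes. In each direction 0 had one in the VSG but not the Control list. The called gene Cyp2b10, which fell, had a Control peak over its start site, from 178 bases before to 35 bases after it. The nearest peak lay 2121 bases upstream in the VSG list and 2096 in the Sham list. Rab3ip, called higher in VSG mice, likewise had a peak within 1000 bases in the Control list only. Tat and Gadd45g, which fell, had a peak over the start site in both the Control and the VSG list.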

How the data were processed

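RNA-seq libraries of 2 Control, 2 Sham and 2 VSG livers were used, and the fit took the 4 Control and VSG libraries. Per the labels, RNA was poly(A)-enriched and sequenced as 50-bp reads, whereas the study's methods give depletion of ribosomal RNA. FPKM values per RefSeq transcript were made by the authors with Cufflinks after TopHat2 alignment to mm9 (versions are not given in the sources used here). Cufflinks shares reads between isoforms and can list 0 for a failed estimate: 897 tested genes (9.69%) had a 0 in at least 1 of the 4 libraries. Depth in reads is unknown and no interval on counts is given.

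FPKM was summed over transcripts of a symbol (34610 of 34933 transcripts found one in RefSeq gene tables), genes with FPKM of at least 1 in at least 2 of the 4 libraries were kept, and log2(FPKM + 1), which understates changes of low genes, was fitted with limma 3.58.1 (R 4.3.3, eBayes with trend, 2-sided). Adjusted p-values follow Benjamini-Hochberg over all 9256 genes, at 0.1. The fit was tested on simulated data. Nothing in the labels shows shared cages or batches, and the p-values cover no mice beyond these. The eBayes step draws each gene's variance toward that of genes at a similar level. The p-values and standard errors therefore depend on other genes as well as on the gene's own spread. Where both mice of a group are listed at 0, that group adds no spread of its own. Gene coordinates are from GENCODE vM1 on NCBIM37 (mm9). Promoters are from RefSeq. The F-seq signal that the authors deposited with each FAIRE peak was not compared, and peaks, kept by IDR across both mice of a group, were used by position. Deposited tables of the authors' own comparisons, with fold changes and p-values, and lists of variable sites were not used. Figures were drawn with Python 3.11.15, pandas 2.3.3, numpy 2.4.6 and matplotlib 3.10.9.

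Named genes are every called gene or the 12 with the smallest p in a direction, the 8 largest differences per direction without a 0 or overlap, up to 6 members of a list, and genes the study discussed, of which the text gives a part. Gene lists and members were chosen with earlier results of these data known. Alternatives were the pseudocount, the filter on FPKM, scaling, quantile normalization, the Sham group in the fit, no trend, robust variance, single transcripts, a replicate block and leaving out each library. Some genes of these lists are not reported here.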

Additional observations from a re-analysis of the deposited data

How the results depend on the processing

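The 45 called genes depended on the processing, and those present kept their direction in each setting other than single transcripts, where direction was not compared. The count was 18 with a pseudocount of 0.1, 9 without the filter on low FPKM (2030 genes at an unadjusted p under 0.05, against 1313), and 0 by limma with FPKM of at least 1 in all 4 libraries (1188 at an unadjusted p under 0.05) or above 0 in all 4 (1357). It lay between 30 and 54 with a pseudocount of 0.5, other scaling, the Sham group in the fit, no trend, robust variance or single transcripts. Leaving out 1 library gave 0 to 0 calls by limma and 597 to 1915 genes at an unadjusted p under 0.05, the lone mouse being assumed to vary like the other group. Of the latter, higher genes were 52.7% without VSG mouse 2. The 870 genes at least 2-fold apart without overlap became 492 with FPKM of at least 1 in all 4 libraries and 1075 to 1444 without 1 library. With a replicate block 0 genes were called by limma (1121 at an unadjusted p under 0.05). Deviations of same-numbered mice correlated with r = 0.066 over genes. A single correlation of this kind cannot show whether same-numbered mice shared a cage or batch, and the labels name none.

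Some genes turned sign. Cyp2c50 was at −0.084 (log2) with median-of-ratios scaling and −0.11 with quantile normalization, and Ttr at −0.11 with median-of-ratios scaling. Without 1 library the difference ran from −1.43 to 0.32 for Cps1, −1.71 to 0.066 for Cyp2c29, −0.27 to 0.44 for Cyp2c50, −1.10 to 0.26 for Cyp2c55, −3.21 to 1.95 for Cyp3a59, −0.50 to 1.12 for Slc40a1 and −0.097 to 0.21 for Ttr. The causes were not tested. Depth in reads is unknown, so differences of low genes were not detectable below the spread between mice.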

Other observations

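Of 24 tested hepatokines and members of the growth factor axis, 6 were higher and 2 lower in VSG mice at an unadjusted p under 0.05, and none was called. Lect2, a secreted leukocyte chemotactic factor, was at an FPKM of 47.6 and 41.9 in Control and 272 and 181 in VSG mice (log2 difference 2.29, standard error 0.26, adjusted p = 0.147, limma), with Sham mice at 218 and 66.2. Igfbp1, which binds insulin-like growth factors and which insulin is known to repress, was at 466 and 567 in Control and 76.5 and 31.9 in VSG mice (log2 difference −3.35, standard error 0.48, adjusted p = 0.183), with Sham mice at 24.2 and 339. The repressor Bcl6 was at 2.61 and 1.57 in Control and 18.03 and 25.7 in VSG mice (log2 difference 2.89, standard error 0.30, adjusted p = 0.120), a 10.4-fold higher mean, with Sham mice at 15.3 and 4.60. The receptor Nr1i2 (PXR), which senses drugs and bile acids, was at 38.4 and 36.1 in Control and 12.5 and 17.0 in VSG mice (adjusted p = 0.208).

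Of 20 tested clock genes, 2 were higher and 1 lower at an unadjusted p under 0.05. Nr1d1 was at 7.88 and 6.84 in Control and 63.3 and 22.1 in VSG mice, Dbp at 27.3 and 16.9 in Control and 48.2 and 68.8 in VSG mice, and Per2 at 5.74 and 3.12 in Control and 1.82 and 1.74 in VSG mice. The time of day of dissection is not given in the sources used here. Of 22 tested immediate early genes, 1 was higher and 5 lower, against 10.5% and 3.71% of all tested genes. By their means 13 members were higher and 9 lower in VSG mice. The list's median was 0.33, and −0.11 without VSG mouse 1. Dusp6, the higher gene, was at 12.9 and 14.4 in Control and 27.8 and 30.8 in VSG mice. Myc was at 3.60 and 2.56 in Control and 0.793 and 0.661 in VSG mice, and Nr4a1 at 1.69 and 2.72 in Control and listed at 0 in both VSG mice. Of 22 tested metallothioneins and Nrf2 targets, 3 were higher and 4 lower: the quinone reductase Nqo1 was at 2.27 and 2.01 in Control and 4.73 and 4.97 in VSG mice, whereas Gstm1, a glutathione transferase, was at 816 and 939 in Control and 376 and 404 in VSG mice. Among the largest differences between genes above 0 in all 4 libraries, Ly6d was at 1.01 and 1.22 in Control, 67.1 and 23.1 in VSG and 82.5 and 148 in Sham mice, and Ifi27l2b at 2.66 and 2.34 in Control and 79.3 and 34.5 in VSG mice.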
